A study of Homo sapiens with 10 samples.

Results

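The lysyl oxidase family and the procollagen lysyl hydroxylases were followed on mRNA arrays of PC-3 cells, a human prostate carcinoma line. The family has 5 lysyl oxidases (LOX and LOXL1 to LOXL4) and 3 hydroxylases (PLOD1 to PLOD3), 8 genes of the 28090 named on the array. Spots were taken where the gene name in the scanner file was one of these, which gave 10 probes of 41000. LOXL4 was chosen by its large fall on these arrays, so its values are given as a description and were not tested, and the counts below are over the other 7 genes. Cells were sampled before treatment (0 h) or after 24 h with DMSO, the solvent, with 60 µM luteolin, with 60 µM gefitinib or with 60 µM of each, and every drug was given in DMSO. Luteolin is a plant flavone, and gefitinib is an inhibitor of the EGF receptor kinase. Each of the 5 groups had 2 arrays that the labels call biological replicates. All cells were of this 1 line. For the 6 drug-treated arrays the name of the scanner file carried another treatment than the label: the arrays labelled luteolin had files named for gefitinib, those labelled gefitinib had files named for both drugs, and those labelled with both drugs had files named for luteolin. Groups are therefore called by their labels, and each statement on a drug holds for the arrays labelled with it.

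Lysyl oxidases are secreted copper enzymes that oxidize lysine side chains of collagen and elastin, and the aldehydes formed react into the covalent cross-links that stiffen the matrix. LOX and LOXL1 are made as proenzymes with a propeptide, whereas LOXL2, LOXL3 and LOXL4 carry scavenger receptor domains. Lysyl hydroxylases act earlier, in the endoplasmic reticulum, where they hydroxylate lysines of the procollagen chain and so set which kind of cross-link can form. LOX and PLOD2 are textbook targets of the hypoxia-inducible factors, and several members are studied in tumor invasion.

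Values are log2 signals relative to the 75th percentile of each array, and a difference of 1 is 2-fold. That percentile was 1177 to 1402 at 0 h, 1283 to 1350 with DMSO and 1041 to 1173 on the arrays labelled luteolin, but 628.4 to 650.7 on those labelled gefitinib and 539.8 to 864.6 on those labelled with both. The median of the 19718 genes kept differed from DMSO by 0.08, 0.22 and 0.16 in these 3 drug groups, in that order. The limma test covered 28776 probes, with Benjamini-Hochberg adjusted p, and calls needed an adjusted p under 0.05 together with 2-fold or more. KRT8, KRT18, EPCAM and VIM, which PC-3 cells express, were well above background on 10 of 10 arrays. The KLK3 probe for its reference transcript, which is low or absent in this line, was so on 0 arrays, and another KLK3 probe on 10. Of the fibroblast markers DCN and PDGFRB were on 0 arrays, LUM on 8, THY1 on 10 and PDGFRA on 7, 6 or 1 by probe. The log2 of their summed signal was 0.93 to 0.98 with DMSO, 0.81 to 0.95 with luteolin, 1.80 to 2.19 with gefitinib and 1.26 to 1.70 with both labels. Most of that sum was THY1, which alone averaged 0.85 with DMSO, 0.79 with luteolin, 1.95 with gefitinib and 1.41 with both. PDGFRA went the other way, by -2.12 with gefitinib and -2.30 with both against DMSO.

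LOXL4 stood highest before treatment and lowest on the arrays labelled with both drugs. Its signal at the probe at chr10:99997736-99997795 (hg18, minus strand, as all coordinates of probes here) was 2391 and 1518 at 0 h, 811.5 and 1000 with DMSO, 233.2 and 123.1 with luteolin, 431.3 and 401.9 with gefitinib and 97.8 and 49.2 with both. Relative to the array percentile these were 0.77 and 0.37 at 0 h, -0.73 and -0.36 with DMSO, -2.33 and -3.08 with luteolin, -0.59 and -0.65 with gefitinib and -3.14 and -3.46 with both. The gefitinib arrays lay between the DMSO arrays, whereas both luteolin arrays and both arrays of the combination lay below every other array. The luteolin and combination arrays did not overlap, but the lower luteolin array lay next to the higher combination array. Against DMSO, LOXL4 differed by -2.16 with luteolin, -0.07 with gefitinib and -2.75 with both, with a fitted SE of 0.28 for each. With normexp background correction the last was -1.98. In RNA of whole cultures, fewer cells with the transcript and less transcript per cell cannot be told apart. DMSO itself was 1.12 below 0 h, so the differences from 0 h were larger, at -3.27, -1.19 and -3.87. On the slide that held 1 array of each 24 h group the difference from DMSO was -1.60 with luteolin and -2.41 with both, and on the slide with the other arrays of these groups it was -2.72 and -3.10.

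A second LOXL4 probe, whose 60 bases span 2133 bases of the genome (chr10:99998685-100000817), had the same order of group means. It read -2.33 and -2.65 at 0 h, -3.19 and -3.25 with DMSO, -4.51 and -5.17 with luteolin, -2.94 and -3.67 with gefitinib and -5.11 and -4.80 with both. It was not well above background on 1 luteolin array and on both combination arrays, where it was at least 3.32-fold lower than with DMSO. Pearson's r between the probes over the 10 arrays was 0.974, a description of 10 arrays in 5 groups.

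**Figure D1:**
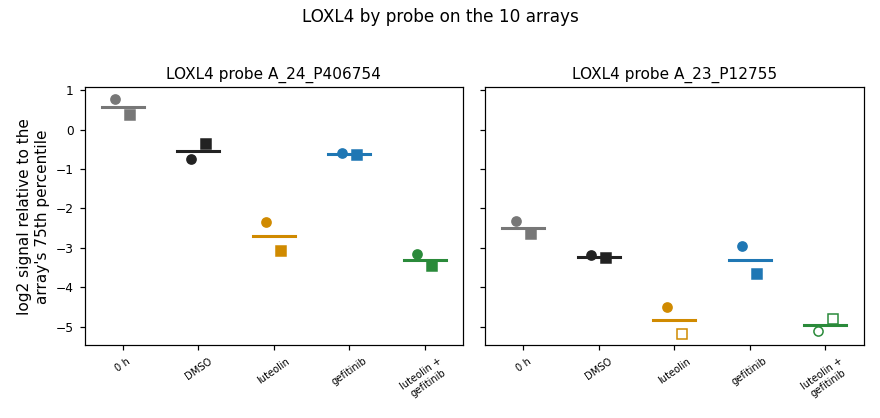
LOXL4 by probe on the 10 arrays, as log2 signal scaled to each array's 75th percentile. Circles are replicate 1, squares replicate 2, lines the mean of a group, and open symbols arrays on which the probe was not well above background. Both probes were lowest on the arrays labelled luteolin and luteolin plus gefitinib.

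Of 16262 genes well above background on all arrays, the 5 with a profile most like that of LOXL4 were CTSC (r = 0.994), FMN2 (0.988), the transcript cluster THC2530905 (0.988), CHRNA5 (0.983) and EXOSC9 (0.978), by Pearson's r over the 10 arrays. CTSC, the lysosomal protease cathepsin C, averaged 3.46 at 0 h, 2.86 with DMSO, 1.42 with luteolin, 2.80 with gefitinib and 1.14 with both. FMN2, an actin nucleator of the formin family, averaged -0.29, -0.86, -2.41, -0.94 and -3.13 in the same groups. These genes were ranked on the profile itself, and the arrays fall into 5 groups, so r is a description.

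LOX, the founding member, changed in the opposite direction to LOXL4 on the arrays labelled luteolin. Its probe (chr5:121433685-121433744, 10 spots per array) read -5.71 and -5.92 at 0 h, -5.85 and -6.27 with DMSO, -3.34 and -3.28 with luteolin, -5.38 and -5.98 with gefitinib and -4.44 and -5.45 with both. LOX was well above background on only 4 of 10 arrays, both luteolin arrays among them, and on 0 of the 2 DMSO arrays. A probe was tested when it was well above background on both arrays of a group, and LOX met this with luteolin alone. The p-values of LOX are therefore a description and not independent of that filter. With luteolin it rose by 2.75 against DMSO (SE 0.34, limma adjusted p = 0.00137), and since DMSO was not well above background the rise was at least 5.61-fold on this scale. With normexp the rise was smaller than that limit, 1.23 on the log2 scale (adjusted p = 0.000145). With gefitinib neither group was above background, and no fold is given. With normexp LOX was 0.80 higher with gefitinib than with DMSO (limma adjusted p = 0.0011), short of 2-fold. With both drugs 1 of 2 arrays was well above background and neither DMSO array was, so no lower limit is given. The fitted difference with both drugs was 1.11 (SE 0.34, limma adjusted p = 0.0316). That call rested on the array labelled with both drugs as replicate 1: without it the difference was 0.60 (adjusted p = 0.128), and without DMSO replicate 1 or DMSO replicate 2 it was 1.32 and 0.90 (adjusted p = 0.0683 and 0.164). It was also lost with quantile normalization (0.62, adjusted p = 0.160), with no filter on dim probes (adjusted p = 0.0591), with the model of these groups alone (adjusted p = 0.0722) and with normexp background correction (0.91). Against luteolin alone, LOX was lower with both drugs by 1.64 (SE 0.34, limma adjusted p = 0.00679), and the difference was -0.32 with normexp (adjusted p = 0.0992).

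LOXL1, which cross-links elastin, was bright on every array and was called lower where both drugs were on the label. Its probe (chr15:72031448-72031507, plus strand) read 2.74 and 2.84 at 0 h, 2.75 and 2.62 with DMSO, 2.23 and 1.71 with luteolin, 2.94 and 2.95 with gefitinib and 1.25 and 1.26 with both. Both arrays of the combination lay below all others. LOXL1 fell by 1.43 against DMSO (SE 0.19, limma adjusted p = 0.0018), on 1 slide by 1.50 and on the other by 1.36, and by 1.69 against gefitinib (adjusted p = 0.000303). With luteolin it was 0.72 lower (adjusted p = 0.0271), which is under the 2-fold minimum, and with gefitinib it differed by 0.26 (95% interval -0.18 to 0.70).

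LOXL3 fell with luteolin and with both drugs, by the labels. Its brighter probe (chr2:74613871-74613930) read -2.67 and -3.09 at 0 h, -3.21 and -3.66 with DMSO, -4.81 and -5.72 with luteolin, -3.37 and -3.41 with gefitinib and -5.27 and -5.64 with both. In either of the lower groups 1 of 2 arrays was well above background, and neither overlapped with DMSO. The difference from DMSO was -1.83 with luteolin (SE 0.31, limma adjusted p = 0.00484) and -2.02 with both (SE 0.31, limma adjusted p = 0.00291), and 0.05 with gefitinib (95% interval -0.67 to 0.77). After normexp background correction, which adds a constant before the scaling, the differences with luteolin and with both were -0.79 and -0.43 and were not called. That step draws dim signals together and can also shift them between arrays of unlike percentile. With gefitinib LOXL3 was then 0.40 above DMSO (limma adjusted p = 0.0881). The other LOXL3 probe (chr2:74614537-74614596) was well above background on 1 array, at 0 h, and did not pass the filter.

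LOXL2, a tumor-associated member, was bright on all arrays and was not called in any comparison. It read 2.44 and 2.47 with DMSO, 2.24 and 2.34 with luteolin, 3.11 and 2.83 with gefitinib and 2.38 and 2.39 with both. With gefitinib it was 0.51 higher than with DMSO (SE 0.15, limma adjusted p = 0.023), under the 2-fold minimum, and 0.13 higher with quantile normalization (adjusted p = 0.451), and the intervals of the other drug groups were -0.53 to 0.18 for luteolin and -0.43 to 0.28 for both.

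PLOD2, the hydroxylase of the collagen telopeptides, separated luteolin from the combination. Its probe (chr3:147271102-147271161) read 0.83 and 0.84 at 0 h, 0.62 and 0.92 with DMSO, 0.09 and 0.17 with luteolin, 1.14 and 1.06 with gefitinib and 1.62 and 1.86 with both. The luteolin arrays were the lowest of the 10 and those with both drugs the highest. PLOD2 was higher with both drugs than with luteolin by 1.61 (SE 0.17, limma adjusted p = 0.000547). Against DMSO it was 0.64 lower with luteolin (adjusted p = 0.0255) and 0.97 higher with both (adjusted p = 0.00409), each short of 2-fold. The combination passed 2-fold without its replicate 1 (1.09) and without DMSO replicate 2 (1.12).

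PLOD1 and PLOD3 were not called in any comparison. PLOD1 (chr1:11957534-11957593, plus strand), which hydroxylates lysines of the collagen helix, read 0.87 and 0.72 with DMSO, 0.82 and 0.86 with luteolin, 1.67 and 1.44 with gefitinib and 0.90 and 1.31 with both. With gefitinib it was 0.77 above DMSO (SE 0.18, limma adjusted p = 0.00891) and 0.96 above 0 h (adjusted p = 0.00369), and it passed 2-fold against 0 h without gefitinib replicate 2 (1.07). PLOD3 (chr7:100636148-100636207), which also has glycosyltransferase activity, lay between 2.65 and 3.54 on all arrays, and its differences from DMSO were -0.12, 0.42 and 0.00.

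**Figure D2:**
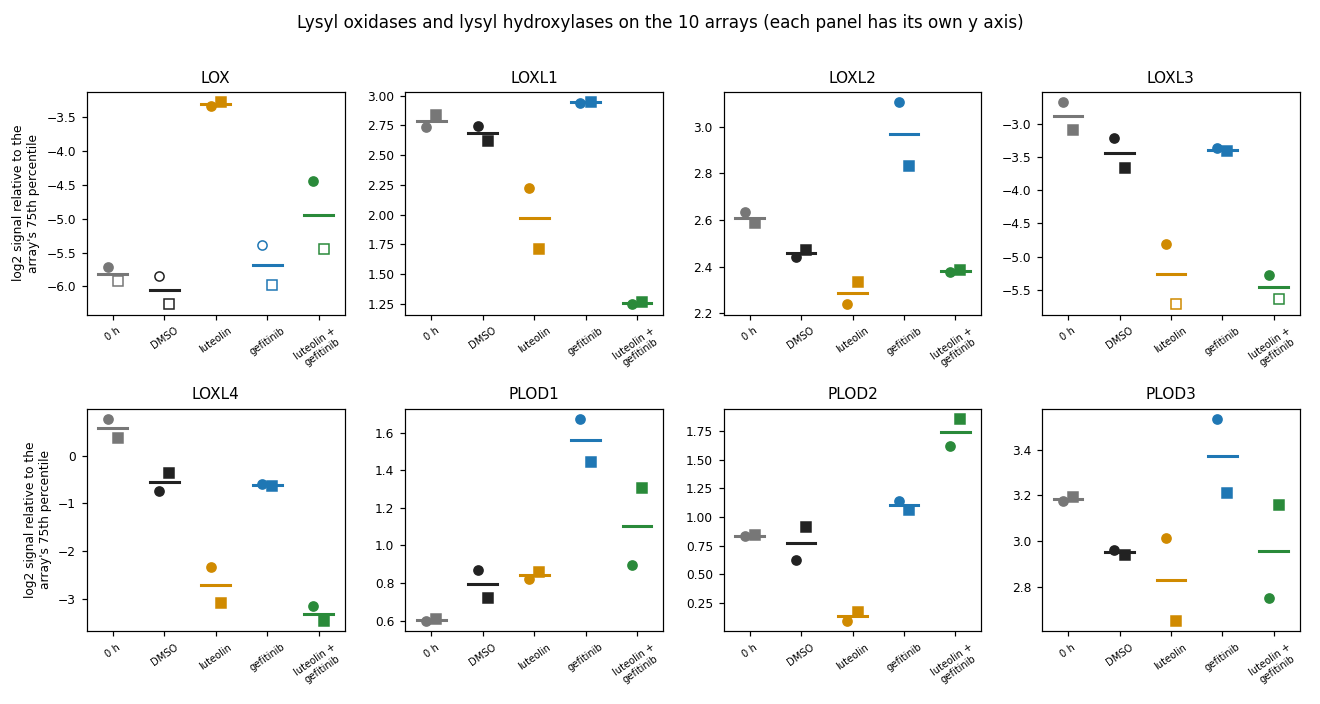
The 8 genes on the 10 arrays by group, as log2 signal scaled to each array's 75th percentile, with a y axis of its own in each panel. Symbols are as in the plot of the LOXL4 probes. LOX was high on the luteolin arrays, LOXL1, LOXL3 and LOXL4 were low with luteolin plus gefitinib, and PLOD2 was lowest with luteolin and highest with both.

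Counted over the 7 tested genes, luteolin raised 1 (LOX) and lowered 1 (LOXL3) against DMSO, where 7.22% of all genes were raised and 6.17% lowered. LOX was among the 7 only because it passed the filter on the luteolin arrays. Gefitinib raised 0 and lowered 0, against 15.6% and 14.3% of all genes. In that comparison 2 members, LOXL2 and PLOD1, had an adjusted limma p under 0.05 but differed by less than 2-fold. They were also the 2 with an unadjusted limma p under 0.05, a share not counted over all genes. The t-test of the methods called 0. The combination raised 1 (LOX) and lowered 2 (LOXL1 and LOXL3), against 12.1% and 7.69%. A single member (1) is 14.3% of the 7, and no test of these counts was made. The split of all calls moved with the scaling. The raised share was 52.3% for gefitinib and 61.1% for the combination, and it was 40.2% and 44.8% with quantile normalization and 66.3% and 71.3% with normexp.

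**Figure D3:**
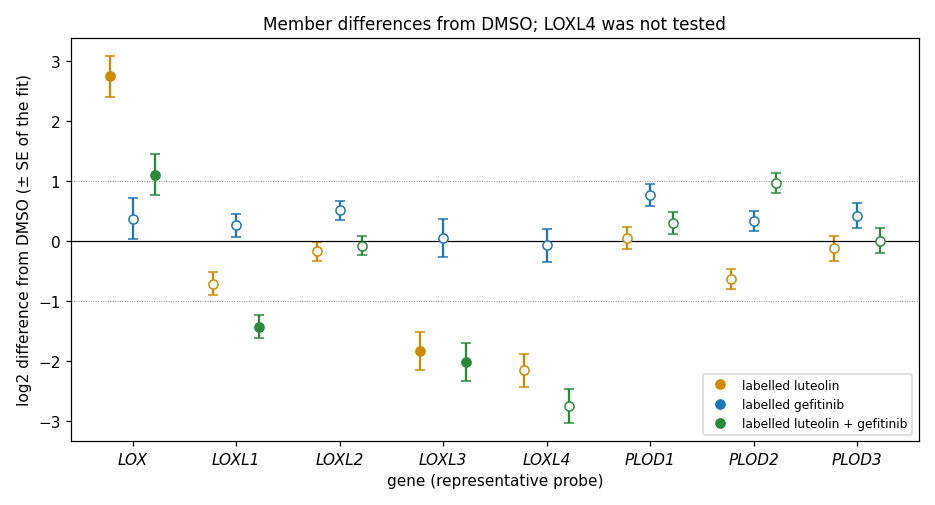
Difference of each drug-labelled group from DMSO for the 8 genes, as log2 with the SE of the limma model over 2 arrays a group. Filled points passed the adjusted p and 2-fold, dotted lines mark 2-fold, and LOXL4 was not tested. No point of the gefitinib arrays is filled, and LOX is the only gene with filled points above 0.

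Against 0 h, luteolin changed 2 of 7 (LOX raised by 2.50, LOXL3 lowered by 2.39), beside 16.1% of all genes, the combination changed 2 (LOXL1 by -1.53 and LOXL3 by -2.58), beside 19.8%, and gefitinib changed 0, beside 29.0%, with 2 members at an unadjusted limma p under 0.05. DMSO changed 0 of 7, with 0 at an unadjusted limma p under 0.05 and 0 by the t-test, beside 0.0355% of all genes. Between the drugs, gefitinib differed from luteolin in 2 (LOX, at least 3.34-fold lower, and LOXL3, 1.88 higher), beside 36.6%. The combination differed from luteolin in 2 (LOX and PLOD2), beside 21.0%, and from gefitinib in 2 (LOXL1 and LOXL3, by -2.07), beside 27.0%. With normexp the LOX call between gefitinib and luteolin was lost (-0.42), as were those of LOXL3 for the combination against 0 h (-0.83) and against gefitinib (-0.82). A count of 2 is 28.6% of the members, which is above the share of all genes for luteolin and the combination against 0 h and for the combination against luteolin, close to it against gefitinib and below it for gefitinib against luteolin. LOX is among the 2 for luteolin against 0 h and for both comparisons with luteolin. It was tested only because it passed the filter on the luteolin arrays, so these counts are not independent of that filter.

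Whether the combination equalled the sum of the single drugs was tested as an interaction, called at the adjusted p alone. It was called for 3 of 7 members, beside 34.2% of all genes. LOX was tested only because it passed the filter on the luteolin arrays, where it was high. The count is therefore not independent of that filter. PLOD2 was 1.27 above the sum (SE 0.24, limma adjusted p = 0.00475), LOX was 2.01 below it (SE 0.48, limma adjusted p = 0.0135) and LOXL1 was 0.97 below it (SE 0.27, limma adjusted p = 0.025). The size for LOX is uncertain, since DMSO and gefitinib were not above background, and its adjusted p was 0.0536 without DMSO replicate 2. The LOXL1 call was lost with quantile normalization (adjusted p = 0.0789), with no filter (0.0529) and with slide as a block (0.0501). It was also lost in 5 of the 8 fits that left out 1 array, with adjusted p = 0.0647 without DMSO replicate 1, 0.0948 without DMSO replicate 2, 0.0696 without luteolin replicate 1, 0.0521 without gefitinib replicate 1 and 0.0545 without gefitinib replicate 2. The values in these 5 fits were -0.71 to -1.04.

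The promoters of 3 members are shown, those of LOX and PLOD2 because they share a motif and that of LOXL4, which lacks it, for comparison. Each is the 250 bases before the start site, 5′ to 3′ on the gene's strand, from RefSeq on GRCh38.p14. Capitals mark ACGTG, the core of the hypoxia response element, read on either strand. TGANTCA, the AP-1 motif, was searched in the same way and found in 0 of the members' windows. LOX is at chr5:122078260-122078509 (minus), PLOD2 at chr3:146161185-146161434 (minus) and LOXL4 at chr10:98268195-98268444 (minus).
LOX: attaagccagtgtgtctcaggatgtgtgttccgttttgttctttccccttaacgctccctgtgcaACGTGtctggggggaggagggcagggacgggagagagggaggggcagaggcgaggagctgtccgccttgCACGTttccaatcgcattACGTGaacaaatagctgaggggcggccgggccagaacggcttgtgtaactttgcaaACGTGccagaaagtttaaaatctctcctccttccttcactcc
PLOD2: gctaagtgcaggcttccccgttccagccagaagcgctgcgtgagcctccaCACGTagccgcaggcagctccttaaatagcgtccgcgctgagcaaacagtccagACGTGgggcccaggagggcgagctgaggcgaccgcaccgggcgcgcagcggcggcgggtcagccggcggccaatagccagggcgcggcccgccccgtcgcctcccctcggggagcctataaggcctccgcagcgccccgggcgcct
LOXL4: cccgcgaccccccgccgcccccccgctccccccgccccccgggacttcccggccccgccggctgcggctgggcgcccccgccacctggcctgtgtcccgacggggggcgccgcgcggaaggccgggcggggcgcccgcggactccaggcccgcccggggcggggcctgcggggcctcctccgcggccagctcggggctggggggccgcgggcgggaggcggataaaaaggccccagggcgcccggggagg
The first LOX window holds 4 matches to ACGTG, at 185, 116, 98 and 42 bases before the start, and the PLOD2 window 2, at 200 and 146 bases. The other LOX windows, which overlap each other, held 1 match each, at 68 and 117 bases before the start. It is the same run of bases, so the count by start site includes it for both windows. Of 7 members with a promoter in the table, only these 2 had a match, and by start site 4 of the members' 10 windows did. Of the 35116 windows searched over all genes, also counted by start site, 18.5% had ACGTG and 6.6% had TGANTCA. The LOXL4 window is 86.4% G and C. A match is a run of letters in this window and not a site known to be bound.

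Genes that work with the members were counted against DMSO in the same fit. Of all genes, luteolin raised 7.22% and lowered 6.17%, gefitinib 15.6% and 14.3%, and the combination 12.1% and 7.69%. The counts of the lists are to be read beside these shares, and no list was tested as a set. In the list of collagen hydroxylation and folding (15 genes tested), luteolin raised 2 and lowered 0, gefitinib raised 5 and lowered 1, and the combination raised 0 and lowered 1; the medians were 0.41, 0.38 and -0.04. With gefitinib 2 were raised under quantile normalization and 2 under normexp. P4HA3, a prolyl hydroxylase subunit, rose by 2.79 with luteolin (SE 0.24, limma adjusted p = 0.000495) and by 1.51 with gefitinib. PPIB, the cyclophilin of the procollagen complex, rose by 1.01 with luteolin. P3H4, a partner of that complex, fell by 2.30 with gefitinib, and P3H2 rose by 1.10. The other calls with gefitinib, named after their values were seen, were rises of P4HB (1.04), PPIB (1.04) and CRTAP (1.03). SERPINH1, the collagen chaperone HSP47, fell by 1.12 with both drugs. With normexp the SERPINH1 call and the PPIB call with luteolin were lost. Among the 8 propeptide processing genes tested, luteolin changed 0, gefitinib raised 3 and lowered 1, and the combination lowered 1. BMP1, the protease that removes propeptides from procollagen and from LOX, rose by 1.08 with gefitinib and FN1, its fibronectin cofactor, by 1.57, with PCOLCE2 (1.06) named after its value was seen. TLL1, a relative of BMP1, fell by 1.35 with gefitinib, and ADAMTS3, a procollagen N-proteinase, fell by 1.71 with both. Of these calls FN1 was the one kept with normexp, and PCOLCE2 was lost with quantile normalization too.

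Their collagen substrates moved in both directions with gefitinib, as did all genes (15.6% raised and 14.3% lowered). Of 8 fibrillar collagens tested, luteolin raised 0 and lowered 1, gefitinib raised 2 and lowered 3, and the combination lowered 1. COL1A1 fell by 2.22 with gefitinib (SE 0.30, limma adjusted p = 0.000924), where 1 of 2 arrays was well above background, and fell by 1.54 with both. COL5A2 fell by 1.36 and COL2A1 was at least 1.68-fold lower with gefitinib. Named after its value was seen, COL27A1 rose by 1.33 with gefitinib. COL24A1, also named afterwards, is the call with luteolin and the other rise with gefitinib, but it was well above background on 0 luteolin arrays, 0 DMSO arrays and 1 gefitinib array, so no fold is given. With normexp luteolin lowered 0 of these collagens, gefitinib raised COL27A1 and lowered COL5A2 alone, and the combination lowered 0, so that the COL1A1 and COL2A1 calls were lost. Of 7 network collagens and partners, luteolin raised 1, gefitinib raised 1 and lowered 2, and the combination raised 1 and lowered 1. COL7A1, the anchoring fibril collagen, rose in all drug groups, by 1.12 with luteolin, 1.55 with gefitinib and 1.75 with both. PXDN, the peroxidase that cross-links collagen IV, fell by 2.42 with gefitinib, COL4A6 by 1.12 with gefitinib and COL4A5 by 1.04 with both. With normexp the calls of COL7A1 with luteolin and COL4A6 with gefitinib were lost. The fibroblast markers moved in the gefitinib and combination arrays too: THY1 rose by 1.10 with gefitinib and LUM by 1.03 and 1.74, whereas PDGFRA was at least 2.93-fold lower with gefitinib and fell by 2.30 with both. DCN and PDGFRB were at background throughout, and the part of these markers in the collagen results was not tested.

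Elastic fibre and copper supply genes were counted next, where gefitinib raised 15.6% and lowered 14.3% of all genes and luteolin lowered 6.17%. Of 8 elastic fibre genes tested, luteolin lowered 1 (FBN2, a fibrillin, which fell by 1.49), gefitinib raised 1 (EFEMP2, a LOX-binding fibulin, by 1.11) and the combination changed 0. Of 3 copper genes tested, gefitinib raised ATOX1, the copper chaperone, by 1.21 and lowered ATP7B, a copper pump, by 1.06, and the other drug groups changed 0. The ATOX1 call was lost with quantile normalization and the ATP7B call with normexp.

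Hypoxia targets, the list that shares a known regulator with LOX and PLOD2, were mostly raised on the arrays labelled with both drugs. Of all genes 12.1% were raised there, 7.22% with luteolin and 15.6% with gefitinib. Of 8 tested, the combination raised 6 and lowered 0 (median 1.38), luteolin raised 3 and lowered 1 (median -0.15) and gefitinib raised 2 and lowered 0 (median 0.45, and 1 raised with quantile normalization). The median of all genes differed by 0.16, 0.08 and 0.22 in these groups. ADM, the vasodilator peptide adrenomedullin, rose by 2.83 with gefitinib and 2.65 with both. NDRG1 rose by 1.53 with luteolin, 1.06 with gefitinib and 2.25 with both, and SLC2A1, the glucose transporter GLUT1, by 1.85 with both. The remaining rises, named after their values were seen, were VEGFA with luteolin (1.03) and with both (1.34), and BNIP3 (1.43) and ANKRD37 (1.04) with both. The VEGFA call with luteolin was lost with normexp and with quantile normalization, and that of ANKRD37 with both drugs was lost with normexp. ANKRD37 rose by 1.31 with luteolin, while PDK1, which limits pyruvate oxidation, fell by 1.29. PLOD2 was highest on the same arrays on which most of these genes were raised. LOX was highest on the luteolin arrays, where the list's median was -0.15 and PLOD2 was lowest. Whether the hypoxia-inducible factors had a part in either gene's change was not tested.

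**Figure D4:**
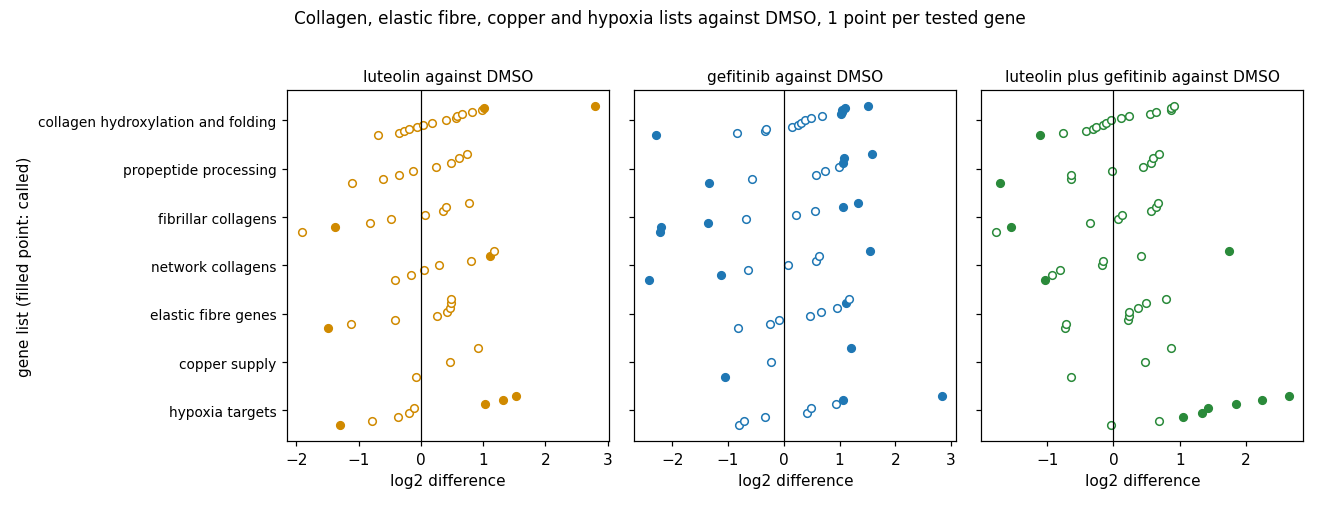
Difference from DMSO of each tested gene of 7 lists, as log2, 1 panel per drug-labelled group and 1 point per gene; filled points passed the adjusted p and 2-fold. Of the hypoxia targets, 6 of 8 are filled on the right of 0 with luteolin plus gefitinib, and the fibrillar collagens lie on both sides of 0 with gefitinib.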

How the data were processed

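RNA of PC-3 cells was labelled with Cy3 and hybridized to 10 single-color Agilent Whole Human Genome arrays, 2 for each of 5 groups taken from the sample labels. The authors deposited the scanner output of Agilent Feature Extraction (version 10.7.3.1 per the file headers) and a value table. As deposited, both hold the processed intensity on a linear scale, with background and spatial trend subtracted and no normalization between arrays, equal at 45015 of 45015 spots per array within a relative tolerance of 1e-04. Columns of per-sample values left unused numbered 0. Slides were taken from the scanner files.

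From these, log2 intensities relative to the 75th percentile of non-control spots were computed in R 4.3.3 with the data.table package, version 1.17.8. Spots marked as outliers were dropped and the other spots of a probe averaged. A probe was taken as well above background where the scanner file marked 50% or more of its spots as such, and was kept when this held on both arrays of at least 1 group (28776 of 41000 probes, 19718 genes). Each array had 63.39% to 70.37% of its probes above that mark and 0 saturated. A gene was represented by its probe with the highest mean. A limma 3.58.1 model with 5 groups was fitted to all 10 arrays (5 residual and 3.36 prior degrees of freedom) with Benjamini-Hochberg adjustment over the probes kept. The interaction subtracted both single-drug changes from DMSO from the change with the combination. A lower limit ("at least") was given where 1 of the groups had no array above the background mark and the other had both. Each array of the dim group was then given its own signal or the smallest signal passing the mark there, whichever was larger.

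Accessions of 23958 probes matched the RefSeq table and took its symbols. Probe coordinates are those of the scanner files, and gene models of that build (hg18) were not used here. Of the 8 members, 7 had a promoter in the RefSeq table, LOXL2 being the exception. The genes named are all probes of the members, up to 3 called genes per list and drug group with the largest change among those well above background on both arrays of 1 of the groups, and the 5 genes most correlated with LOXL4, besides genes marked as named after their values were seen. Some marker genes of the line are not reported here. The members and lists were chosen with earlier results of these data known. The number of arrays limits the precision, and p-values rest on the spread between the labelled biological replicates. The model used 1 spread per probe for all 5 groups, although the groups differed in spread. The median SD between the 2 arrays was 0.118 at 0 h, 0.089 with DMSO, 0.136 with luteolin, 0.183 with gefitinib and 0.258 with both. The analysis was tested on simulated data. Alternatives were normexp background correction (offset 50), quantile normalization, no filter, the value table, a block for replicate number or for slide, a model of the compared groups alone, the file names' treatments, calls without a minimum fold, the median over probes, the methods' t-test on 1 sample and leaving out each array.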

Additional observations from a re-analysis of the deposited data

Results flagged for a closer look

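For 3 members the response to one drug differed with and without the other, by the interaction term of the limma model. They were 42.9% of the tested members, beside 34.2% of all genes called in the same way, at the adjusted p alone. The 3 include LOX, which was tested only through its high signal on the luteolin arrays, so this share depends on the filter. Whether the members departed from additivity more often than other genes was not tested. The departure from additivity was -2.01 on the log2 scale for LOX (adjusted p = 0.0135, DMSO and gefitinib not above background), -0.97 for LOXL1 (adjusted p = 0.025) and 1.27 for PLOD2 (adjusted p = 0.00475). The LOXL1 call was lost in 5 of 8 fits without 1 array, with quantile normalization, with no filter and with slide as a block, and the LOX call without DMSO replicate 2. Grouped by the file names, the values were -3.48 for LOX, 2.40 for LOXL1 and 0.00 for PLOD2. With 2 arrays a group, no search for outlying arrays was made.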

How the results depend on the processing

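Of 1022 values of the 7 tested members under the alternatives, 916 kept direction and call, 28 lost the call, 17 gained it and 15 reversed, all 15 with the treatments of the file names. Another 46 changed sign without a call in either setting. With normexp, 1 member was called for luteolin against DMSO, 1 for the combination against DMSO, 1 against 0 h, 1 against luteolin and 1 against gefitinib, and 1 for gefitinib against luteolin. Of 19718 genes, normexp had 907 raised and 789 lowered for luteolin against DMSO, and 1848 and 744 for the combination against DMSO. With no minimum fold, the calls were 4 for luteolin against DMSO and 4 against 0 h, 2 for gefitinib against DMSO, 1 against 0 h and 6 against luteolin, and 4 for the combination against gefitinib. The methods' t-test called 1 member at an unadjusted p for luteolin against DMSO and against 0 h, gefitinib against luteolin and the combination against DMSO, luteolin and gefitinib, and 0 after Benjamini-Hochberg adjustment in these and for the combination against 0 h. Shares of all genes were not counted for calls without a minimum fold, at an unadjusted p, by the t-test or with an array left out. Those member counts therefore cannot be set beside other genes.

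With the treatments of the file names, 2 members were called for gefitinib against DMSO, 2 for gefitinib against 0 h, and 0 for the combination against DMSO and against 0 h. By these names, 1423 of 19718 genes were raised and 1216 lowered for gefitinib against DMSO, and 3082 and 2814 for the combination. The values then reversed were, for gefitinib against DMSO, LOXL3 at -1.83; for the combination against DMSO, LOXL1 at 0.26 and LOXL3 at 0.053; against 0 h, LOXL1 at 0.15; for gefitinib against luteolin, LOX at 1.64 and PLOD2 at -1.61; for the combination against luteolin, LOXL1 at 1.69, LOXL3 at 2.07, LOXL4 at 2.68 and PLOD2 at -0.64; against gefitinib, LOX at -2.37, LOXL1 at 0.98, LOXL3 at 1.88 and LOXL4 at 2.09; and for additivity, LOXL1 at 2.40, LOXL2 at 0.76, LOXL3 at 3.90 and LOXL4 at 4.84. The alternative exchanges the 3 drug groups by construction.

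Leaving out each array gave 0 to 1 members for gefitinib against 0 h and 1 to 4 for additivity (1 without DMSO replicate 2, 4 without the combination's replicate 2), and LOXL4 differed by -0.26 to 0.12 for gefitinib against DMSO, above 0 without DMSO replicate 2. Correlations between same-numbered arrays ran from -0.09 to 0.29 over 10 pairs of groups, 6 of them over 0.1, so the numbers were not taken as pairs, and with replicate number as a block 2 members were called for luteolin against DMSO, 0 for gefitinib and 3 for the combination, as without it. With slide as a block PLOD2 passed for gefitinib against luteolin (1.04). The medians of the fibrillar collagens were -0.24 with gefitinib and 0.09 with both drugs, and 0.19 with normexp and -0.23 with quantile normalization in turn. Signal over background limits LOX, LOXL3 and the second LOXL4 probe, and the cause of the other changes was not tested.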
